A study of Mus musculus with 12 samples.

Results

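This account describes 8 genes of fatty acid uptake and binding in mouse white adipose tissue (WAT) and cultured adipocytes. Libraries labelled as knockout of Xap5, a nuclear protein encoded by Fam50a, were compared with wild type (WT). The 8 genes, Lpl, Gpihbp1, Cd36, Slc27a1, Slc27a4, Fabp4, Fabp5 and Vldlr, were chosen by name, with earlier results of these data known. Each had 1 row of read counts in the WAT table (26639 features) and in the culture table (22851 features), and all 8 were among the 21669 features listed in both. All 8 also passed the filter on low counts in both tables. The question was what Xap5 does in fat cell development and death, and messenger RNA was measured in 12 libraries. The groups were cKO WAT and WT WAT at postnatal day 42, and KO and WT adipocytes on day 8 after adipogenic induction, with 3 libraries each. The knockout is named Adiponectin-cKO after the adipocyte hormone and is described as specific to mature adipocytes, so other cells of WAT are not its stated target. The cultures were started from pre-adipocytes of subcutaneous WAT of newborn mice and were differentiated with insulin, dexamethasone and IBMX in both genotypes. The labels do not say which depot the WAT came from, the sex of the mice, or whether each library came from a separate mouse or culture, so a p-value here measures library-to-library spread alone.

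Adipocytes take fatty acids from the blood in steps. Lipoprotein lipase (LPL) is made by adipocytes, is carried to the capillary lumen by the endothelial protein GPIHBP1, and releases fatty acids from circulating triglyceride. CD36 and the fatty acid transport proteins FATP1 (Slc27a1) and FATP4 (Slc27a4) bring them across membranes or trap them as acyl-CoA, the binding proteins FABP4 and FABP5 hold them in the cytosol, and the VLDL receptor binds triglyceride-rich lipoproteins.

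Library totals were 33132906 to 33997204 counts in cKO WAT, 28844370 to 30704234 in WT WAT, 10863158 to 21773610 in KO cultures and 11601138 to 12401278 in WT cultures. CPM values here are counts scaled to the library total times its TMM factor. The targeted gene Fam50a had 23.3, 16.8 and 28.9 CPM in cKO WAT, against 35.3, 32.5 and 36.5 in WT WAT. Its log2 fold change there was -0.60 under TMM scaling (edgeR, adjusted p = 0.0395). With library size only it was 0.09 (adjusted p = 0.736), so the lower level in cKO WAT depended on the scaling. KO cultures had 46.2, 42.9 and 41.1 CPM of this gene, against 57.9, 52.0 and 45.2 for WT cultures (adjusted p = 0.134). The deleted part of the gene is not given in the sources used here, so a whole-gene count is a limited check of the genotypes, which are used below as labelled. The adipocyte markers Adipoq and Plin1 were present in all 12 libraries. In WAT, 24.2% of all genes tested were called lower in cKO and 28.2% higher. All 18 adipocyte markers fell there, and their summed level was 5972 to 17268 CPM in cKO libraries, against 75021 to 76988 CPM in WT libraries. Of 20 macrophage markers, 18 rose, with a sum of 3602 to 7629.7 CPM in cKO WAT, against 748.5 to 1123 CPM in WT WAT. Of 14 fibroblast and progenitor markers 10 rose, of 10 brown fat markers 6 fell and 1 rose, of 11 skeletal muscle markers 1 rose, and of 5 mammary epithelial markers none was called (1 was higher at an unadjusted p). In bulk tissue, fewer cells of a type and less RNA per cell cannot be told apart. The cultures labelled adipocytes also held macrophage and endothelial RNA: Adgre1 was at 151 to 177 CPM in KO and 154 to 178 CPM in WT, and Pecam1 at 91.6 to 109 CPM in KO and 109.8 to 143 CPM in WT. Mammary epithelial markers summed to 928.5 CPM in cKO WAT replicate 3, against 5.33 and 5.91 CPM in the other cKO libraries. In WT WAT the mammary sum was 3.51 to 45.6 CPM. Skeletal muscle markers also varied by library, with sums of 1435.5, 264.1 and 52.6 CPM in cKO WAT replicates 1, 2 and 3. The muscle sums of WT WAT replicates 1, 2 and 3 were 35.8, 214.8 and 1937.7 CPM.

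On the mouse genome build GRCm38, the RefSeq annotation places Lpl at chr8:68880555-68906932, Gpihbp1 at chr15:75596630-75598213, Cd36 at chr5:17781690-17888959 and Slc27a1 at chr8:71568728-71587307. It places Slc27a4 at chr2:29802634-29817522, Vldlr at chr19:27216480-27254231, and Fabp5 and Fabp4 on the same chromosome, at chr3:10012585-10016610 and chr3:10204342-10208616. In the GENCODE M21 annotation, from which the transcripts were taken, no other gene overlapped any of the 8. Of the 50-base stretches of the Fabp5 transcript, 21.1% also occur in 5 other loci, among them Fabp5l2, so its counts are uncertain as far as reads were split among these copies. The share was at most 1.75% for each of the other 7 genes.

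RefSeq start-site windows (250 bases before to 50 after a start, build GRCm38.p6) were available for Cd36, Slc27a1, Slc27a4 and Vldlr. The windows of the membrane genes Cd36, Slc27a1 and Slc27a4 are shown because these 3 genes share a step of uptake and differed in their WAT values. The Cd36 window is chr5:17835847-17836146 on the minus strand, inside the annotated span of the gene. The Slc27a1 window is the first of 3 listed, chr8:71568621-71568920 on the plus strand, and the Slc27a4 window is chr2:29802384-29802683 on the plus strand. Capitals mark matches on either strand to the nuclear receptor hexamer AGGTCA, the GC box GGGCGG, the CCAAT box, the E box CACGTG, the TATA box TATAAA or the C/EBP core TTGCNNAA.
Cd36: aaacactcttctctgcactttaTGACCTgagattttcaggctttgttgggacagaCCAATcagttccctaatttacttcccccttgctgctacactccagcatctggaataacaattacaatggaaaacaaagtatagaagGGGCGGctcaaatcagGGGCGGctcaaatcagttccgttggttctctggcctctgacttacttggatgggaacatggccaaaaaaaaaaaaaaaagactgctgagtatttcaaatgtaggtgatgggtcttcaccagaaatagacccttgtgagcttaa
Slc27a1: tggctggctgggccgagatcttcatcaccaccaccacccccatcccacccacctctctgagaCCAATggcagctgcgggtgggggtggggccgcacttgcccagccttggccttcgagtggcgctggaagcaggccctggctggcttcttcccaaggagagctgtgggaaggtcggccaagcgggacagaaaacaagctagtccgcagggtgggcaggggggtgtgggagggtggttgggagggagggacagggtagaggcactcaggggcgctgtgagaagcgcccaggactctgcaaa
Slc27a4: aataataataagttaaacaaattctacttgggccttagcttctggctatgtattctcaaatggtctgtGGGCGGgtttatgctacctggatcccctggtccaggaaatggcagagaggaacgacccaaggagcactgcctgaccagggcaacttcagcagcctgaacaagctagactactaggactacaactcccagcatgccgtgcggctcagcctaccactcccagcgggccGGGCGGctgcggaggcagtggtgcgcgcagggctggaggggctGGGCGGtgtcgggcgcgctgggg
The Cd36 window holds the hexamer as TGACCT, its reverse complement, at bases 23 to 28, a CCAAT box at bases 56 to 60 and 2 GC boxes that start at bases 142 and 158. The Slc27a4 window holds 3 GC boxes, at bases 69, 235 and 278, and the Slc27a1 window a CCAAT box at base 63. The Slc27a1 windows not shown, from chr8:71569347 and chr8:71570344, both hold GC boxes, and the latter also a CCAAT box and an E box. Among 32851 RefSeq windows of the same length, 16.3% hold AGGTCA, 35.7% GGGCGG, 37.4% CCAAT, 7.15% CACGTG, 13.6% TATAAA and 10.8% TTGCNNAA, so these letters are common. A direct repeat of the hexamer AGGTCA spaced by 1 base, also searched on both strands, is in 0.0396% of windows and in none of the 3 shown. These matches are letters in a window and were not tested as binding sites.

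In WAT, under TMM scaling, both transporters, Gpihbp1, Fabp5 and the VLDL receptor fell in cKO (Slc27a4 had the opposite sign with library size only), while Lpl and Cd36 had higher values that missed the test. At an adjusted p under 0.05 in edgeR's quasi-likelihood test with TMM scaling, 5 of 8 were lower in cKO (Gpihbp1, Slc27a1, Slc27a4, Fabp5 and Vldlr), beside 24.2% of 16293 genes tested. None of the 8 was higher, beside 28.2% of all genes. At an unadjusted p under 0.05, 6 were lower and 0 higher with edgeR, DESeq2 called 6 lower and 1 higher (Lpl), and limma voom 6 lower and 0 higher. The median log2 fold change of the 8 genes was -0.88, against 0.12 over all genes tested. The cKO and WT libraries did not overlap for any of the 8 genes on the TMM scale. The share of all genes without overlap was not computed, and over 50% of genes were called in either direction. The lack of overlap therefore does not by itself set the 8 genes apart.

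Lpl, the lipase that releases fatty acids in the capillary, was at 2648, 3839 and 2869.6 CPM in cKO WAT, against 2408, 2074 and 2192 CPM in WT WAT. All 3 cKO libraries lay above the WT libraries, with replicate 2 well above the other cKO libraries. The log2 fold change of Lpl was 0.49 ± 0.22 (SE; 1.40-fold, 95% interval -0.02 to 0.99), which missed the threshold (adjusted p = 0.0943). Gpihbp1, the endothelial carrier of the lipase, was at 91.6, 105 and 56.6 CPM in cKO WAT, against 224, 259 and 284 CPM in WT WAT. Every cKO library of Gpihbp1 was below 50% of the lowest WT library. Its log2 fold change was -1.60 ± 0.24 (SE), a 3.03-fold lower level (adjusted p = 0.00185).

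Of 19 endothelial markers in WAT, 9 were lower in cKO under TMM scaling, beside 24.2% of all genes, and 2 higher, beside 28.2%. The median log2 fold change of the 19 was -0.47, against -1.60 for Gpihbp1. Their summed level was 1192 to 1717 CPM in cKO libraries, against 2111 to 2788 CPM in WT libraries. With library size only, 2 of these 19 markers were lower, beside 8.76% of all genes, and 5 higher, beside 54.2%. The direction of the list thus depends on the scaling. Rgcc fell by 1.60 on the log2 scale (adjusted p = 0.00379), as far as Gpihbp1, and the same held with library size only (-0.93 for each). Cdh5 fell by 1.07 (adjusted p = 0.00624) and Pecam1 by 0.68 (adjusted p = 0.0328), and neither was called with library size only (adjusted p = 0.132 and 0.993). Relative to the summed endothelial markers of the same library, Gpihbp1 counts stood at 0.0533, 0.0651 and 0.0475 in cKO WAT, against 0.106, 0.0929 and 0.107 in WT WAT. The ratio does not depend on scaling, and the groups did not overlap (two-sided exact permutation p = 0.1, the smallest that 3 against 3 libraries allow).

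Among the membrane genes, Cd36, a scavenger receptor that binds long-chain fatty acids, was at 1759.8, 1784 and 1485 CPM in cKO WAT, against 1460.5, 991 and 1328 CPM in WT WAT. The groups were separated by the narrow gap between cKO replicate 3 and WT replicate 1. The log2 fold change of Cd36 was 0.41 ± 0.20 (SE; 1.33-fold, adjusted p = 0.127), with a 95% interval of -0.07 to 0.89. Slc27a1 encodes the transporter of adipose tissue and muscle that responds to insulin. It was at 230.5, 408 and 244 CPM in cKO WAT, against 924, 863 and 916 CPM in WT WAT. The WT libraries lay close together, and the highest cKO library was under 50% of the lowest of them. Slc27a1 had a log2 fold change of -1.62 ± 0.24 (SE), a 3.06-fold lower level in cKO (adjusted p = 0.00192). Slc27a4, a related transporter with acyl-CoA synthetase activity, was at 60.4, 77.9 and 67.1 CPM in cKO WAT, against 96.1, 105 and 97.9 CPM in WT WAT. It was lower in each cKO library by a smaller step, with a log2 fold change of -0.54 ± 0.13 (SE; adjusted p = 0.0118).

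Fabp4, the most abundant of the binding proteins in fat, was at 6145, 9534 and 4172 CPM in cKO WAT, against 11461, 12485 and 12455.5 CPM in WT WAT. All cKO libraries were lower on the TMM scale, but they spread more than 2-fold among themselves. The log2 fold change was -0.87 ± 0.35 (SE) and missed the threshold (adjusted p = 0.0684). With library size only, cKO replicate 2 was at 11706 CPM of Fabp4, above the WT libraries at 9122, 9745 and 9876.5 CPM. Fabp5, which adipocytes and macrophages both make, was at 452, 511 and 307.5 CPM in cKO WAT, against 806, 763.5 and 929.5 CPM in WT WAT. Its log2 fold change was -0.98 ± 0.22 (SE), a 1.97-fold lower level (adjusted p = 0.00808), in libraries in which the summed macrophage markers were higher. The ratio of Fabp5 counts to summed macrophage marker counts was 0.0619, 0.142 and 0.0403 in cKO WAT, against 0.943, 1.02 and 0.827 in WT WAT. The Fabp5 to Fabp4 count ratio was 0.0736, 0.0536 and 0.0737 in cKO WAT, against 0.0704, 0.0611 and 0.0746 in WT WAT, with overlapping groups (exact permutation p = 0.8).

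Vldlr, the lipoprotein receptor of the set, was at 32.2, 47.6 and 23.0 CPM in cKO WAT, against 76.2, 63.2 and 49.9 CPM in WT WAT. The highest cKO library came close to the lowest WT library. Its log2 fold change was -0.88 ± 0.28 (SE; adjusted p = 0.0332), and the call was lost when WT replicate 1 or 2, or cKO replicate 1 or 3, was left out (adjusted p 0.0580 to 0.106). Leaving out cKO replicate 1 also ended the call for Slc27a4 (adjusted p = 0.0513), which left 3 of 8 genes lower.

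cKO replicate 2 had the highest level of all 8 genes among the cKO libraries, for Cd36 by a small margin. The same library had the highest adipocyte marker sum of the cKO group, 17268 CPM against 7760.1 and 5972 CPM, and the lowest macrophage marker sum, 3602 CPM against 7301 and 7629.7 CPM. Without it, 6 of 8 genes were lower, Fabp4 among them (log2 fold change -1.26, adjusted p = 0.00268). Without cKO replicate 3, the library with mammary epithelial RNA, 4 of 8 were lower. How far the cell make-up of the tissue accounts for the values of these genes was not tested.

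**Figure D1:**
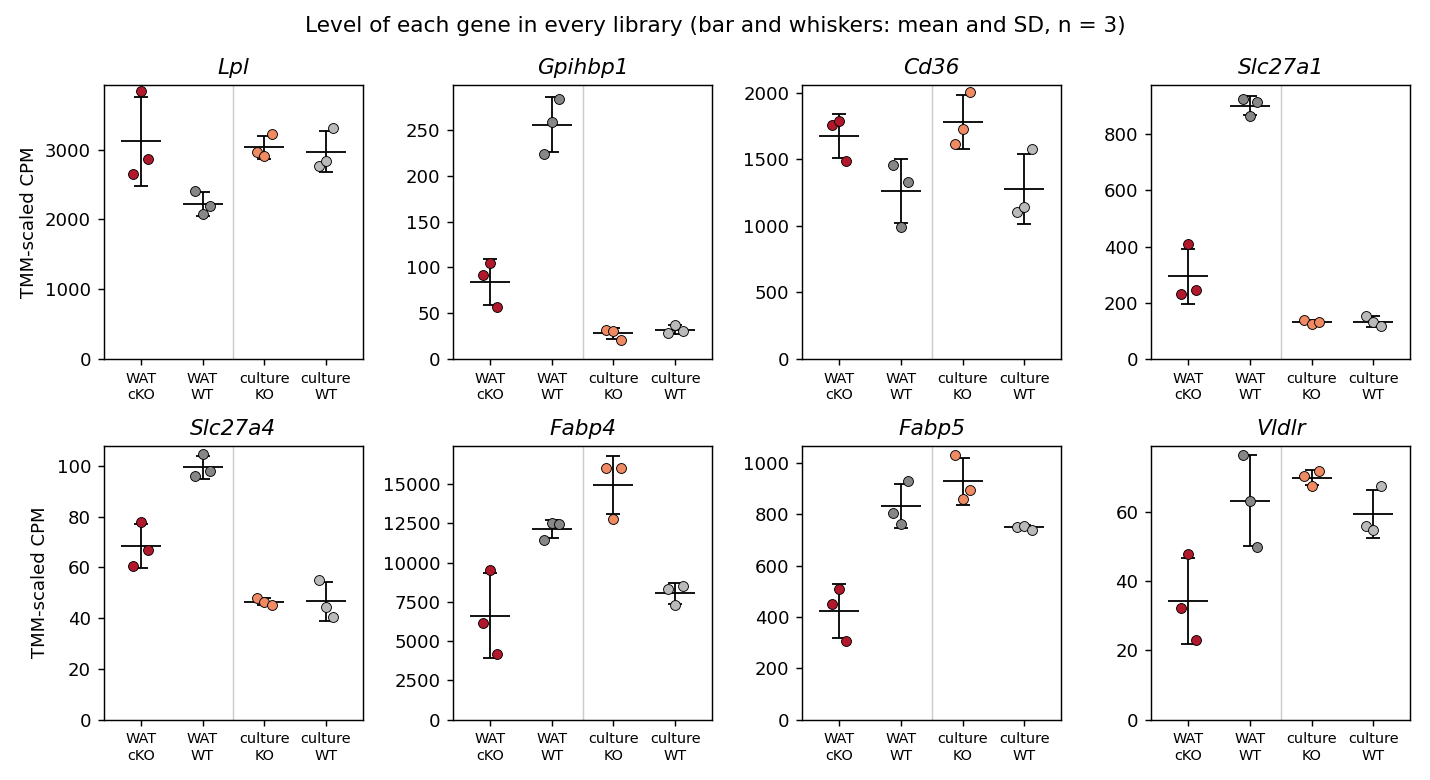
Level of each of the 8 genes as TMM-scaled CPM (vertical axis, from 0) in every library of cKO WAT, WT WAT, KO cultures and WT cultures. Points are libraries, and bars with whiskers are means and SD (n = 3). In WAT the cKO points lie below the WT points for 6 genes and above them for Lpl and Cd36 on this scale (Slc27a4 had the opposite sign with library size only, Lpl and Cd36 with length and GC trends removed), and in culture Fabp4 shows the widest gap, with KO above WT. TMM factors were computed within WAT and within culture, so levels are comparable within each of them.

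The WAT calls depended on the scaling, and so did the direction of Slc27a4. TMM factors averaged 1.27 in cKO WAT and 0.79 in WT WAT, and with library size only the median over all genes was a log2 fold change of 0.80, which is 0.68 above that under TMM. On that scale Cd36 (log2 fold change 1.09, adjusted p = 0.00309) and Lpl (1.16, adjusted p = 0.00262) were called higher in cKO, beside 54.2% of all genes, and Gpihbp1 (-0.93, adjusted p = 0.00841) and Slc27a1 (-0.94, adjusted p = 0.00833) were called lower, beside 8.76% of all genes. Slc27a4 then had a log2 fold change of 0.14, and Fabp4 (-0.21), Fabp5 (-0.30) and Vldlr (-0.21) missed the threshold. Gpihbp1 and Slc27a1 were thus lower in cKO on both scales.

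Placed among all genes, which does not depend on the scaling by more than a fraction of a percent, Slc27a1 and Gpihbp1 lay near the bottom. Under TMM, 5.97% of tested genes had a lower log2 fold change than Slc27a1 and 6.10% a lower one than Gpihbp1. The share was 14.4% for Fabp5, 16.4% for Vldlr, 16.5% for Fabp4 and 26.2% for Slc27a4. Cd36 and Lpl lay just above the middle, with 59.5% and 61.9% of genes below them. A fit that removed the trend of each library with transcript length and GC content turned Cd36 to -0.51 (adjusted p = 0.0489) and Lpl to -0.13 (adjusted p = 0.646), and left the other 6 genes lower in cKO and called.

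**Figure D2:**
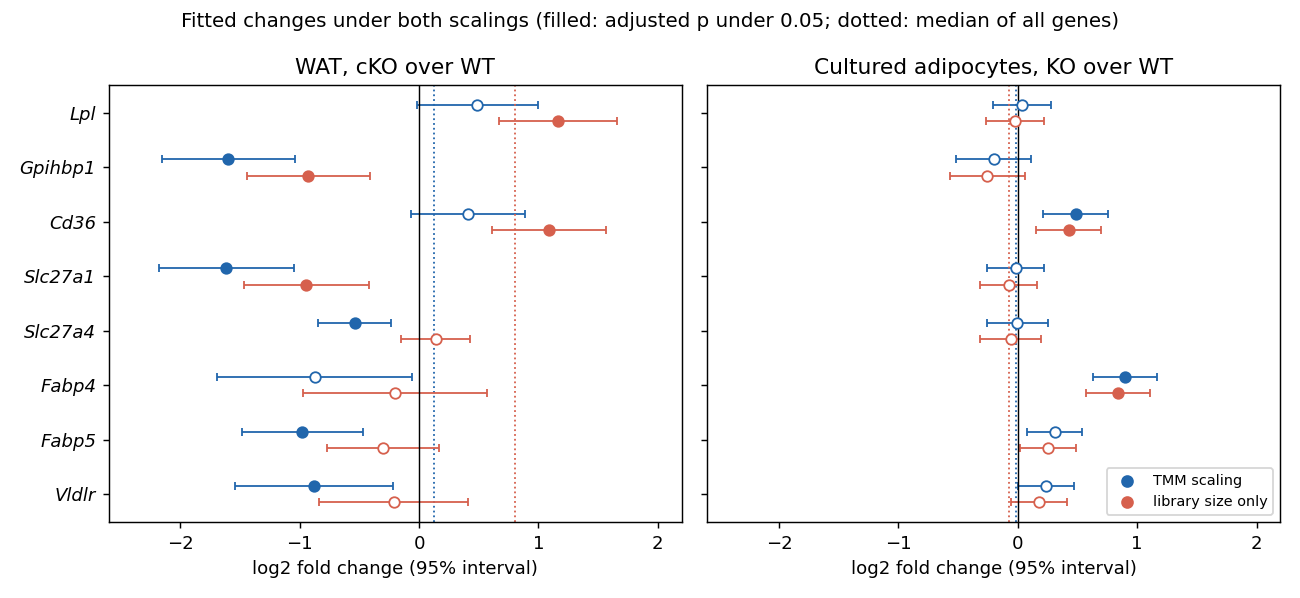
Log2 fold changes of the 8 genes, cKO over WT in WAT (left) and KO over WT in culture (right), with 95% intervals, under TMM scaling and with library size only. Filled points passed an adjusted p of 0.05, and dotted lines are the medians of all genes tested. In WAT both scalings place Gpihbp1 and Slc27a1 below 0, Slc27a4 changes sign between them, and Cd36 and Lpl lie above 0 in both, although removal of length and GC trends turned both of these below 0.

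In cultured adipocytes, a binding protein and the membrane receptor were higher in KO cells. Of the 8 genes, 2 were higher (Fabp4 and Cd36), beside 8.94% of 12587 genes tested, and none was lower, beside 10.6%. At an unadjusted p under 0.05, edgeR gave 3 higher and 0 lower, and DESeq2 and limma voom each called 3 higher and 0 lower, with Fabp5 the added gene. The median log2 fold change of the 8 genes was 0.13, against -0.02 over all genes.

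Fabp4 was at 15979, 12788 and 16024 CPM in KO cultures, against 8310.4, 7287 and 8498 CPM in WT cultures. Every KO culture was at least 1.5 times as high as the highest WT culture. Its log2 fold change was 0.89 ± 0.13 (SE), a 1.86-fold higher level (adjusted p = 6.99e-05), and 99.2% of genes had a lower log2 fold change. With length and GC trends removed it was 0.43, a 1.35-fold higher level (adjusted p = 0.00499). Fabp5 was at 1031, 859 and 893 CPM in KO cultures, against 751, 756 and 739 CPM in WT cultures. The groups did not overlap, yet the log2 fold change of 0.31 ± 0.11 (SE) missed the threshold by a small margin (adjusted p = 0.0526), and removal of length and GC trends took it to -0.02. The Fabp5 to Fabp4 count ratio was 0.0645, 0.0672 and 0.0558 in KO cultures, against 0.0904, 0.104 and 0.0870 in WT cultures. All KO ratios were below all WT ratios (exact permutation p = 0.1).

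Cd36 was at 1613, 1729 and 2007 CPM in KO cultures, against 1107, 1142 and 1579 CPM in WT cultures. KO replicate 1 and WT replicate 3 nearly met. The log2 fold change of Cd36 was 0.48 ± 0.13 (SE; 1.40-fold, adjusted p = 0.0137), and the call was lost without WT replicate 1 (adjusted p = 0.0749) or WT replicate 2 (adjusted p = 0.0965). With length and GC trends removed it was 0.25 (1.19-fold, adjusted p = 0.0319).

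The other 5 genes were not called in culture. Lpl was at 2969.8, 2906 and 3225 CPM in KO cultures, against 2762, 2840.0 and 3305.5 CPM in WT cultures, and its interval on the log2 scale was -0.21 to 0.27. Slc27a1 was at 140.2, 124 and 131 CPM in KO cultures, against 152, 131 and 116 CPM in WT cultures, with an interval of -0.26 to 0.22. Both genes had overlapping groups and means within 3% of each other. Slc27a4 was at 47.9, 46.45 and 45.25 CPM in KO cultures, against 55.1, 44.3 and 40.55 CPM in WT cultures, with an interval of -0.26 to 0.25. Gpihbp1 was low in both genotypes, at 32.1, 30.3 and 21.2 CPM in KO cultures, against 28.04, 37.5 and 30.1 CPM in WT cultures (342 to 653 counts in KO and 332 to 446 in WT). Its groups overlapped, with an interval of -0.51 to 0.11. Vldlr was at 70.2, 67.5 and 71.8 CPM in KO cultures, against 55.75, 54.8 and 67.4 CPM in WT cultures. Its groups were separated by a gap of less than 1 CPM, and its log2 fold change of 0.23 ± 0.12 (SE) missed the threshold (adjusted p = 0.153).

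Marker genes also moved in culture, where 10.6% of all genes tested were called lower and 8.94% higher. Of 20 macrophage markers, 11 were lower in KO with edgeR, DESeq2 or limma voom and 15 at an unadjusted p, none was higher by any of these, and their sum was 3854 to 4464 CPM in KO cultures, against 5539 to 6249.9 CPM in WT cultures. Of 17 adipocyte markers tested, 6 were higher and 3 lower, with a median log2 fold change of 0.09. Adipoq had a log2 fold change of 0.47 (adjusted p = 0.00633), close to that of Cd36. Plin1 (0.07, adjusted p = 0.692) and Cfd (-0.12, adjusted p = 0.571) were not called. The adipocyte sums overlapped, at 14550 to 17007 CPM in KO cultures and 13158 to 15633 CPM in WT cultures. Of 19 endothelial markers, 7 were lower and none higher with edgeR, DESeq2 or limma voom (12 lower and 1 higher at an unadjusted p), with a sum of 560.1 to 632 CPM in KO cultures, against 652 to 808 CPM in WT cultures. Of 13 fibroblast and progenitor markers tested, 5 were lower and 2 higher, with a sum of 15020 to 17186 CPM in KO cultures, against 18219 to 22013 CPM in WT cultures. Of 8 brown fat markers tested, 3 were higher and none lower with edgeR, DESeq2 or limma voom (4 higher and 0 lower at an unadjusted p), with a sum of 309.8 to 334 CPM in KO cultures, against 269.9 to 304 CPM in WT cultures. The KO and WT sums did not overlap for the macrophage, endothelial, fibroblast and progenitor, and brown fat lists. The part of these markers in the values of Fabp4 and Cd36 was not tested. One fit over all 4 groups, in which the wider spread of WAT enters the test, called neither Fabp4 (adjusted p = 0.0812) nor Cd36 (adjusted p = 0.168) in culture.

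The difference between the WAT effect and the culture effect was tested in a fit over all 12 libraries and 14463 genes. It was negative and past the threshold for 6 of the 8 genes, beside 21.1% of all genes, and positive and past it for none, beside 27.7%. The count of positive ones was also 0 at an unadjusted p under 0.05 and with DESeq2 or limma voom. With library size only, 4 were negative and called, and 1 positive. Fabp4 had the largest difference in size under TMM scaling, -1.74 ± 0.35 on the log2 scale (SE; adjusted p = 0.00136), with log2 fold changes of -0.87 in WAT and 0.89 in culture. It was -1.09 with library size only, where that of Lpl was larger in size, and -1.72 with length and GC trends removed, where that of Vldlr was (-1.95). Slc27a1 (-1.56 ± 0.27, adjusted p = 0.000457) and Gpihbp1 (-1.37 ± 0.31, adjusted p = 0.00272) were lower in cKO WAT and had culture log2 fold changes of -0.02 and -0.20. Fabp5 differed by -1.25 ± 0.24 (adjusted p = 0.000977), Vldlr by -1.08 ± 0.31 (adjusted p = 0.0116) and Slc27a4 by -0.50 ± 0.18 (adjusted p = 0.0336). The Slc27a4 call was lost when any of 8 of the 12 libraries was left out, and Slc27a4 turned to 0.15 with library size only. The Vldlr call was also lost with library size only (-0.44, adjusted p = 0.233). Cd36 had a difference of -0.04 with a 95% interval of -0.60 to 0.52 (adjusted p = 0.929), and Lpl one of 0.49 with an interval of -0.00 to 0.98 (adjusted p = 0.0918). With library size only, Lpl was called with a positive difference (1.14, adjusted p = 0.000849). With length and GC trends removed, Cd36 was called with a negative one (-0.78, adjusted p = 0.00389).

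Ratios of counts within a library do not depend on scaling, but trends with transcript length and GC content were not removed from them. The Lpl to Gpihbp1 ratio was 28.9, 36.6 and 50.7 in cKO WAT, against 10.8, 8.01 and 7.72 in WT WAT. The lowest cKO value was more than double the highest WT value, and the mean log2 ratio was higher by 2.11 in cKO, a 4.32-fold difference (exact permutation p = 0.1). With length and GC trends removed, the fitted WAT log2 fold changes were -0.13 for Lpl and -1.25 for Gpihbp1. These lie closer together than the 0.49 and -1.60 under TMM scaling, so the size of the difference depends on these trends. In culture the same ratio was 92.6, 95.8 and 152 in KO, against 98.5, 75.8 and 110 in WT, with overlapping groups (exact permutation p = 0.6). Both culture groups lay above both WAT groups, a difference that was not tested.

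**Figure D3:**
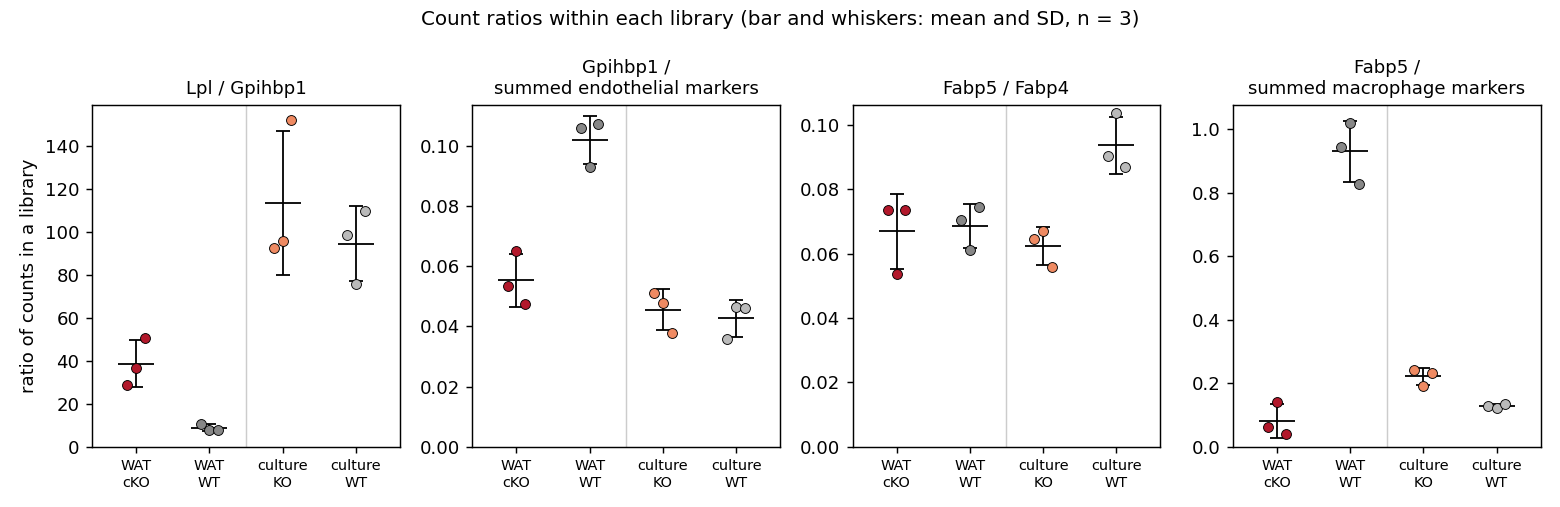
Ratios of read counts within each library for Lpl to Gpihbp1, Gpihbp1 to 19 summed endothelial markers, Fabp5 to Fabp4, and Fabp5 to 20 summed macrophage markers (vertical axes, from 0). Points are libraries, and bars with whiskers are means and SD (n = 3). cKO WAT lies apart from WT WAT in 3 of the ratios and overlaps it for Fabp5 to Fabp4, while in culture KO and WT overlap for the Lpl and Gpihbp1 ratios.

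Summed over the 8 genes, the share of all counts was 1.45%, 2.00% and 1.198% in cKO WAT, against 1.39%, 1.37% and 1.45% in WT WAT, and did not separate the groups (exact permutation p = 0.7). In culture it was 2.15%, 1.83% and 2.17% in KO, against 1.35%, 1.25% and 1.46% in WT, with no overlap (exact permutation p = 0.1). What the sum was made of differed. Fabp4 made up 52.5% ± 6.72 of it in cKO WAT and 68.3% ± 2.63 in WT WAT, Lpl 26.0% ± 4.47 and 12.5% ± 1.10, and Cd36 14.2% ± 2.80 and 7.09% ± 1.38 (SD, n = 3). In culture the parts of Fabp4 and Lpl differed in the other direction, with Fabp4 at 71.1% ± 2.06 in KO and 60.4% ± 2.11 in WT, and Lpl at 14.5% ± 1.05 in KO and 22.3% ± 1.25 in WT. The level of Lpl itself had a log2 fold change of 0.03 there. Cd36 overlapped in culture (8.55% in KO and 9.55% in WT). The parts of Gpihbp1, Fabp5 and Slc27a1 were smaller in the knockout in both WAT and culture, without overlap. Parts of a sum depend on one another, so a larger Fabp4 part leaves less for the other genes. In culture the parts of Slc27a4 and Vldlr were also smaller in KO without overlap. The levels themselves had culture log2 fold changes of 0.31 for Fabp5, -0.02 for Slc27a1 and -0.20 for Gpihbp1, none of them called.

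**Figure D4:**
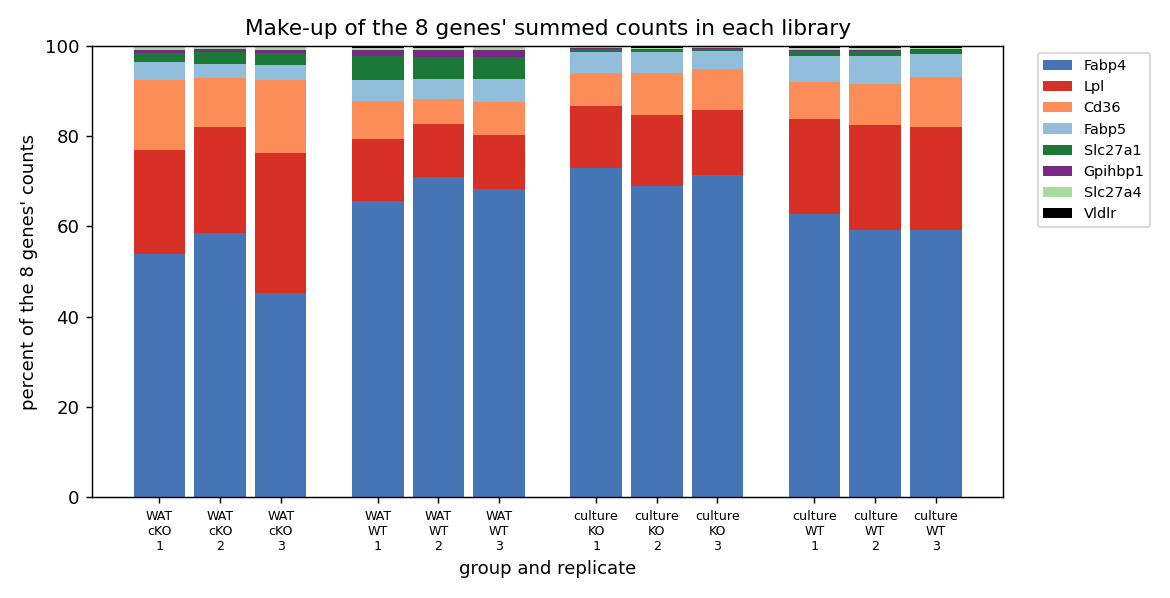
Make-up of the summed counts of the 8 genes in each library, as percent (vertical axis, from 0 to 100) by gene, for cKO WAT, WT WAT, KO cultures and WT cultures. The Fabp4 part is smaller and the Lpl and Cd36 parts are larger in every cKO WAT library than in every WT WAT library, and in culture the Fabp4 part is larger in KO than in WT.

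Per kilobase of transcript, Fabp4 had the highest level of the 8 genes in all 4 groups and Vldlr the lowest. Fabp4 was at 7385 ± 3027 CPM per kb in cKO WAT and 13542 ± 651 in WT WAT, and at 16663 ± 2070 in KO cultures and 8964 ± 728 in WT cultures (SD, n = 3). In cKO WAT, Lpl came second (758 ± 154 CPM per kb), then Cd36 (493 ± 48.9) and Fabp5 (429 ± 106), of which Cd36 and Fabp5 overlapped. In WT WAT, Fabp5 came second (844 ± 87.3), then Lpl (541 ± 41.1), Cd36 (371 ± 71.2) and Slc27a1 (322 ± 11.8), and Cd36 and Slc27a1 overlapped. In both cultures the order was Fabp4, Fabp5, Lpl, Cd36, Slc27a1, Gpihbp1, Slc27a4 and Vldlr. Fabp5 and Lpl overlapped there in WT (759 ± 8.71 and 722 ± 71.4 CPM per kb) and did not in KO (940.0 ± 92.3 and 737 ± 41.0). In cKO WAT the last places were held by Slc27a1 (105 ± 35.3), Gpihbp1 (51.1 ± 15.1), Slc27a4 (16.9 ± 2.17) and Vldlr (4.30 ± 1.56), with no overlap between neighbours.

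Genes around these steps were read from 5 lists with 85 genes in all. Of all genes tested, 24.2% were lower and 28.2% higher in cKO WAT (8.76% and 54.2% with library size only). In culture 10.6% were lower and 8.94% higher. A count near these shares is not a result about its list. The list of genes that regulate or process LPL also holds Lipe and Lipg, which are other lipases. Lipe is an adipocyte marker as well, and all of those fell in cKO WAT. Of 14 tested genes on the list, 8 were lower in cKO WAT and none higher with edgeR. None was higher at an unadjusted p, with DESeq2 or with limma voom either, and 6 were lower and 1 higher with library size only. Those with the smallest p were Furin, a convertase (71.0 ± 6.63 CPM in cKO and 183 ± 13.2 in WT), Pcsk6, a related convertase (13.3 ± 4.93 and 179 ± 31.4), and Lmf1, which helps lipases mature (25.1 ± 4.66 and 62.1 ± 2.58). In culture, 2 of 11 were lower and 1 higher. Furin had a log2 fold change of -0.63 (adjusted p = 0.000643), and Angptl8, an inhibitor of LPL, was at 10.1 ± 1.35 CPM in KO and 4.44 ± 0.55 in WT (adjusted p = 0.000334).

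Of 8 tested relatives in the FABP and transport protein families, 3 were higher and 1 lower in cKO WAT, all at low levels. Slc27a3 was at 10.4 ± 2.22 CPM in cKO and 4.98 ± 1.44 in WT, and Slc27a6 at 1.12 ± 0.361 and 0.0290 ± 0.0503, while Slc27a2 was at 0.544 ± 0.402 in cKO and 8.42 ± 7.30 in WT. None of 7 tested was called in culture in either direction with edgeR, DESeq2 or limma voom. Of the 2 with the smallest p there, Slc27a3 had an unadjusted p of 0.230 and Crabp2, a retinoic acid binding protein, one of 0.214.

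Membrane and caveola genes, 19 in all, were lower for 10 and higher for 4 in cKO WAT, and with library size only lower for 3 and higher for 6. Scarb1, an HDL receptor, fell by 1.23 on the log2 scale (adjusted p = 0.00130), Flot2, a raft protein, by 0.97 (adjusted p = 0.00145), and Zdhhc4, an enzyme that palmitoylates CD36, by 0.95 (adjusted p = 0.00268). With library size only, Flot2 and Zdhhc4 were not called (adjusted p = 0.102 and 0.131). In culture, 2 of 19 were lower, beside 10.6% of all genes, and 3 higher, beside 8.94%, so these counts do not set the list apart. Dbi, an acyl-CoA binding protein, was at 1585 ± 73.0 CPM in KO and 1165 ± 137 in WT. Ehd2, an ATPase of caveolae, was at 283 ± 22.3 in KO and 365 ± 17.6 in WT.

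Of 15 tested lipoprotein receptors and partners besides Vldlr, 6 were lower and 6 higher in cKO WAT. Sort1, a sorting receptor (198 ± 37.6 CPM in cKO and 676 ± 33.7 in WT), and Lrpap1, a chaperone of the receptor family (100.4 ± 4.65 and 244 ± 11.6), were lower, and Msr1, a macrophage scavenger receptor (21.5 ± 6.61 and 1.013 ± 0.0833), was higher. In culture, 6 of 16 were lower with edgeR, DESeq2 or limma voom and 8 at an unadjusted p, and none was higher by any of these. Stab1, a scavenger receptor, was at 219.8 ± 19.99 in KO and 551 ± 133 in WT.

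Among 20 transcriptional and vascular regulators of uptake, 8 were lower and 2 higher in cKO WAT, and with library size only 6 were lower and 6 higher. Rxra, the partner receptor of PPAR gamma, was at 128.5 ± 19.4 CPM in cKO and 346 ± 10.9 in WT, and Vegfb, a vascular growth factor, at 61.1 ± 16.5 and 366 ± 27.3. Hif1a, a hypoxia factor, was higher, at 49.6 ± 3.24 CPM in cKO and 17.0 ± 4.22 in WT. Pparg, the receptor that drives fat cell formation, fell by 1.24 on the log2 scale in cKO WAT (adjusted p = 0.00215). In culture Pparg was higher in KO (232 ± 6.85 CPM in KO and 162 ± 24.0 in WT, adjusted p = 0.00317). Cebpb, an early adipogenic factor, was lower there (71.8 ± 44.6 and 189 ± 16.5, adjusted p = 0.00198). KO replicate 3 had 20.3 CPM of Cebpb, far below KO replicates 1 and 2 at 96.2 and 98.8 CPM. Of 19 regulators tested in culture, 4 were lower and 2 higher.

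For each of the 8 genes, the gene with the most similar profile was taken by Pearson's r of log2 CPM over 12 libraries, centred within WAT and within culture, among 9417 genes. These values describe the profiles, since all genes share the same libraries and depth. Slc27a1 was most like C1qtnf12 (r = 0.996), and 649 genes had an r over 0.95 with it. Fabp4 was most like Mdh1 (r = 0.990), Fabp5 like Psmb3 (r = 0.983), Gpihbp1 like Tm2d2 (r = 0.976), Vldlr like Cox7b (r = 0.976) and Slc27a4 like Flot1 (r = 0.973). Cd36 and Lpl had the fewest close neighbours, with Dnajb6 (r = 0.963) first among 8 genes over 0.95 for Cd36, and Fmr1 (r = 0.955) as the only one for Lpl.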

How the data were processed

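The deposited values were raw read counts per gene, 1 table for WAT and 1 for culture, with a column for each library. Per the submitters' processing notes, FastQC 0.11.2, cutadapt 1.11, HISAT2 2.1.0 and the GRCm38 build were used. For the counting program, its annotation and its use of strand, the sources used here give nothing. Per the labels' protocols, RNA came from TRIzol extraction and libraries from an MGIEasy mRNA kit. The authors' counts were analysed in R 4.3.3 with edgeR 4.0.16: filterByExpr with a minimum count of 10, TMM scaling and the quasi-likelihood test, cKO or KO over WT, with Benjamini-Hochberg adjusted p-values over all genes of a fit and a threshold of 0.05. The difference of both effects was fitted over 12 libraries. CPM values are TMM-scaled, and SE is the size of the log2 fold change over the square root of F. DESeq2 1.42.0, limma voom 3.58.1, other scalings, filters and left-out libraries were alternatives. The tests were tried on simulated data. The 8 genes and all lists were chosen with earlier results of these data known. Lists share 6 genes. Named list genes were the 3 with the smallest p in WAT and the 2 in culture, and markers the 2 most abundant beside defining ones. Of the lipoprotein receptors in culture, 1 gene that this rule names is not reported here. Pparg in WAT is given beside its culture value.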

Additional observations from a re-analysis of the deposited data

Results flagged for a closer look

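The WAT and culture effects differed past the threshold of edgeR's test of the difference itself for 6 of the 8 genes. On the log2 scale, WAT minus culture, the difference was -1.37 for Gpihbp1, -1.74 for Fabp4, -1.25 for Fabp5, -1.56 for Slc27a1, -0.50 for Slc27a4 and -1.08 for Vldlr. Fabp4 and Fabp5 had opposite signs in the 2 settings, with log2 fold changes of -0.87 and -0.98 in cKO WAT and 0.89 and 0.31 in KO cultures, of which the Fabp4 value in WAT and the Fabp5 value in culture missed the threshold, the Fabp5 value in culture being -0.02 with length and GC trends removed. The signs of these 6 differences were kept when any 1 of the 12 libraries was left out, and with library size only 4 of them passed the threshold, as the Slc27a4 difference changed sign (0.15) and that of Vldlr was -0.44 (adjusted p = 0.233).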

How the results depend on the processing

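Counts limit precision little here, since the lowest count of the 8 genes in a library was 332. With library size only, 2 genes were lower and 2 higher in cKO WAT, Slc27a4 turned to 0.14, Lpl in culture to -0.026, and the differences of effects for Cd36 and Slc27a4 to 0.61 and 0.15. With length and GC trends removed, Cd36 was at -0.51 and Lpl at -0.13 in WAT, 4 genes were higher in culture, where Lpl was at -0.061, Fabp5 at -0.017, Slc27a1 at 0.18 and Slc27a4 at 0.25, and the difference for Lpl was -0.12. DESeq2 called 1 gene higher in WAT and the fit over 4 groups 2. That fit left 146 genes past the threshold in culture, 4 of them in the pathway lists, with 0 of the 8 higher. A minimum fold of 1.5 left 4625 genes in WAT, 2 of the 8 lower, and 37 genes in culture, with 0 of the 8 higher and 1 pathway gene. Values near 0 in culture changed sign: Slc27a4 was at 0.0054 with RLE factors and with DESeq2, 0.0073 with limma voom, 0.0045 in the fit over 4 groups, 0.0097 without mitochondrially encoded genes and 0.018 with no count filter, which put Slc27a1 at 0.0029. The causes were not tested.

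The replicate block left 5 of the 8 genes lower in WAT and gave 3824 genes past the threshold in culture, against 2459 without it, and Slc27a4 was at 0.011 there. With it, Fabp5 was also called in culture (adjusted p = 0.0127). Same-numbered libraries correlated at -0.326, 0.0268 and -0.232 in WAT and at 0.184, 0.0324 and 0.238 in culture, so that not every pair was over 0.1 in either, and the labels tie no number to a shared litter, batch or day. Whether same-numbered cultures were paired cannot be told from these values. Not every library correlated best with its own number in WAT or in culture.

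When 1 library was left out at a time, the genes lower in WAT numbered 3 to 6 and those higher in culture 1 to 4, with 897 genes (without WT replicate 2) to 3380.0 genes (without WT replicate 3) past the threshold in culture, and 9 to 28 in the pathway lists. The log2 Fabp5 to Fabp4 ratio in WAT ranged from -0.13 to 0.10, the Gpihbp1 to endothelial ratio in culture from -0.032 to 0.22, and the share of counts in WAT from -0.081 to 0.32 percentage points. Fold changes in culture ranged from -0.014 to 0.12 for Lpl, from -0.10 to 0.10 for Slc27a1 and from -0.088 to 0.14 for Slc27a4, and the difference for Cd36 from -0.22 to 0.076.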
